A study of Homo sapiens with 15 samples.

Results

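The ion channel genes described here are the 62 genes, of 4872 present in any of the deposited tables, whose symbols begin with the family names of potassium (KCN), sodium (SCN), calcium (CACN), chloride (CLCN, CLIC, ANO), TRP, PIEZO, glutamate-gated (GRIA, GRIK, GRIN), ATP-gated (P2RX) or acid-sensing (ASIC) channels. By ion class they comprise 23 potassium, 9 sodium, 6 calcium and 7 chloride channel genes, 9 TRP and PIEZO genes and 8 ligand-gated receptor genes. Members are chosen by name alone, so the set holds pore-forming subunits, auxiliary subunits and transporters that share a family name. No ASIC gene was listed in any table.

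The data are RNA-sequencing profiles of WI-38, a human fetal lung fibroblast line that stops dividing after prolonged culture, in 5 groups of 3 libraries. The younger group was at PD30 and received the transfection reagent lipo3000 and DMSO. The reference group, called the PD45 control, was at PD45 and received lipo3000 with the agent labelled NC, and DMSO. The siSRC2 and siSRC4 groups were at PD45 and received lipo3000 with siSRC, and DMSO. The GW8510 group was at PD45 and received lipo3000 with NC, and is labelled with the kinase inhibitor GW8510 where the other groups are labelled DMSO. PD is given in the labels as the generation of the cells, and the cells that were treated are called senescent there. All groups share lipo3000. NC is absent from the PD30 group and DMSO is not named for the GW8510 group, so NC and generation cannot be told apart in the comparison of PD30 with PD45, nor GW8510 and the absence of DMSO in the GW8510 comparison. Whether replicate libraries derive from independent cultures is not given, so p-values here rest on library-to-library spread that could be technical.

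Ion channels are membrane proteins whose pores let selected ions pass down their gradients. Potassium channels set the resting membrane potential and so the driving force for calcium entry, voltage-gated sodium and calcium channels carry inward current when the membrane depolarises, and TRP and PIEZO channels open to lipids, heat, irritants or membrane stretch. Many pore subunits work with auxiliary subunits that set their gating and their delivery to the membrane. Fibroblasts are not electrically excitable cells, and in them channels are known mainly for calcium signalling, volume control and sensing of mechanical force. In bulk RNA, more transcript per cell and more cells with the transcript cannot be told apart.

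The deposited tables hold only genes past the authors' thresholds against the PD45 control (adjusted p of 0.05, 1.5-fold), so absence from a table says nothing about a gene. As a share of the genes tested, worked back from the authors' adjusted p-values, they list 15.3% at PD30, 11.8% under GW8510, 2.64% under siSRC2 and 8.77% under siSRC4. Values are the deposited normalized signal, whose scale per gene length is not stated, so levels are compared between groups and not between genes. Read depth is unknown. SRC, the target of the knockdown, stood at 57.0% of its PD45 control signal under siSRC2 and 54.6% under siSRC4, without overlap of the libraries. Library columns and mean columns of the siRNA tables carry different siRNA names, and groups here follow the library columns. Of 12 fibroblast markers, 4 were listed as higher and 1 as lower at PD30, with VIM at 5407 ± 219 and 3225 ± 104 at PD30 and PD45 (SD, n = 3). The lower marker was S100A4, at 94.2 ± 10.8 at PD30 against 448 ± 27.3, a 4.75-fold lower mean. GW8510 had 1 higher (COL3A1, 1.76-fold) and 1 lower (FAP, 1.99-fold), siSRC2 2 higher and siSRC4 none. Markers of other cell types were listed as well: smooth muscle and pericyte markers as lower (3 of 9 at PD30, 1 with GW8510, 1 with siSRC4, led by RGS5 at 1.53 ± 0.786 at PD30 against 9.80 ± 1.93), and epithelial markers as lower at PD30 (3 of 7) and with siSRC2 (1) and as higher with GW8510 (1). KRT19 stood at 31.5 ± 2.03 at PD30, 73.6 ± 1.40 with siSRC2, 135 ± 12.7 in the PD45 control and 235 ± 27.0 with GW8510. Of 5 endothelial markers TEK was listed as higher at PD30 and with siSRC2, and of 5 immune markers CD68 as lower with GW8510. Of 6 neuronal markers SNAP25 was listed as higher at PD30 (1.32 ± 0.176 against 0.407 ± 0.0814) and TUBB3 as higher with GW8510 (453 ± 48.5 against 253 ± 13.4). The markers' part in the channel results was not tested. Among the PD45 control libraries, replicate 3 had the lowest signal for 38 of the 62 channel genes and the highest for 10. The same count was not made over all listed genes, so whether it is particular to channel genes is unknown.

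In the PD30 cells most listed channel genes had less transcript than in the PD45 control. Of the 40 listed, 30 were lower and 10 higher at PD30, where 53.8% of all listed genes were higher. Potassium channel genes were listed as lower in 11 cases and higher in 1. Sodium (4 lower, 2 higher), calcium (4 lower, 1 higher) and ligand-gated genes (4 lower, 1 higher) also held more lower than higher members, and TRP and PIEZO genes were lower in 4 cases and higher in 3. For 35 of the 40 every PD30 library lay on 1 side of every PD45 library, against 93.6% of all genes in the table. The median log2 ratio of mean signals was -0.91 over the 40 members and 0.59 over the 2780 listed genes with both means above 0. The members were more often at low signal, where ratios are least certain. Of the 40, 18 had both group means under 1, against 14.6% of all listed genes.

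**Figure D1:**
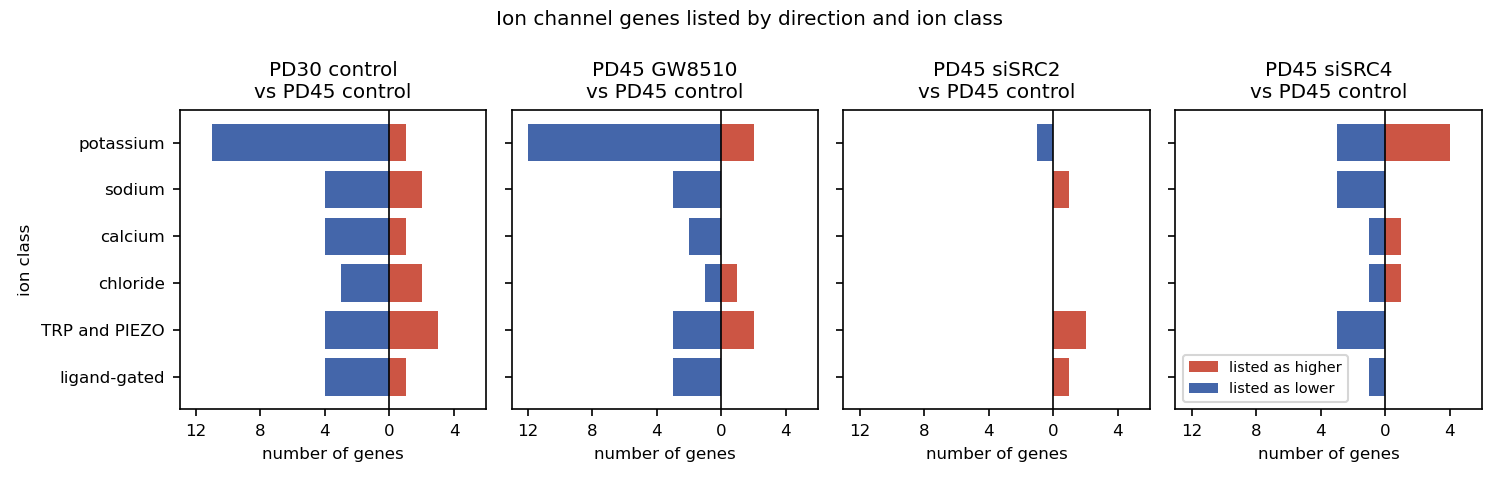
Number of listed ion channel genes by ion class in each comparison with the PD45 control, with genes listed as higher to the right of 0 and as lower to the left. Potassium channel genes make up 11 of the 30 lower members for PD30 and 12 of the 24 for GW8510, while siSRC4 has 4 potassium channel genes higher and 3 lower.

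Among the pore-forming potassium channel genes, KCND3, which encodes an A-type voltage-gated channel, had signals of 0.08, 0.26 and 0.10 at PD30 and 1.49, 1.04 and 0.83 at PD45. KCNQ3, a subunit of the M-current channel, had 0.03, 0.01 and 0.04 at PD30 and 0.78, 0.79 and 0.34 at PD45. Every PD30 library lay below every PD45 library for both genes, and the mean signals were 7.64-fold and 23.9-fold lower. Both genes were at low signal, averaging 0.633 (KCND3) and 0.332 (KCNQ3) over the 6 libraries, too low to enter the limma fit. Their folds rest on PD30 signals of 0.26 or less. Without PD30 replicate 2, which had the highest KCND3 signal of its group, the KCND3 mean was 12.4-fold lower. In the authors' deposited table the log2 fold changes were -3.74 for KCND3 and -5.36 for KCNQ3. KCNS3, a modulatory subunit that forms no pore of its own, had 0.96, 1.26 and 0.85 against 1.55, 1.67 and 2.07, a 1.72-fold lower mean (limma, adjusted p = 0.00797). The exception in direction was KCNG2, another modulatory subunit, with 1.70, 1.79 and 1.67 at PD30 against 0.39, 0.31 and 0.52, a 4.23-fold higher mean. Its groups were far apart and its limma adjusted p was 3.31e-05.

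The other potassium channel genes listed as lower were, like KCND3 and KCNQ3, at low signal, or had groups that met. KCNA2, KCNA7, KCNH6 and KCNJ6, pore-forming subunits of voltage-gated and inward-rectifier channels, had mean signals up to 0.197 at PD45 and up to 0.02 at PD30, where each is listed at 0 in at least 1 library. KCNH1, a channel studied in dividing cells, had 0.12, 0.12 and 0.16 at PD30 and 0.12, 0.31 and 0.15 at PD45. Its libraries overlapped, and the authors' deposited log2 fold change of -1.86 is far from the -0.54 of the mean signals. The inward rectifier gene KCNJ15 ranged from 0.50 to 2.95 at PD45 and from 0.24 to 1.05 at PD30, so its groups overlapped and it did not pass (limma, adjusted p = 0.0898). Its adjusted p was 0.0174 without PD45 control replicate 3 and 0.0441 without PD30 replicate 1. KCNAB2, an auxiliary beta subunit, had 7.44, 5.06 and 4.26 against 6.55, 9.81 and 8.05, with overlap. Its limma adjusted p of 0.0347 rose to between 0.0735 and 0.127 when PD30 replicate 2 or 3 or PD45 control replicate 2 or 3 was left out.

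**Figure D2:**
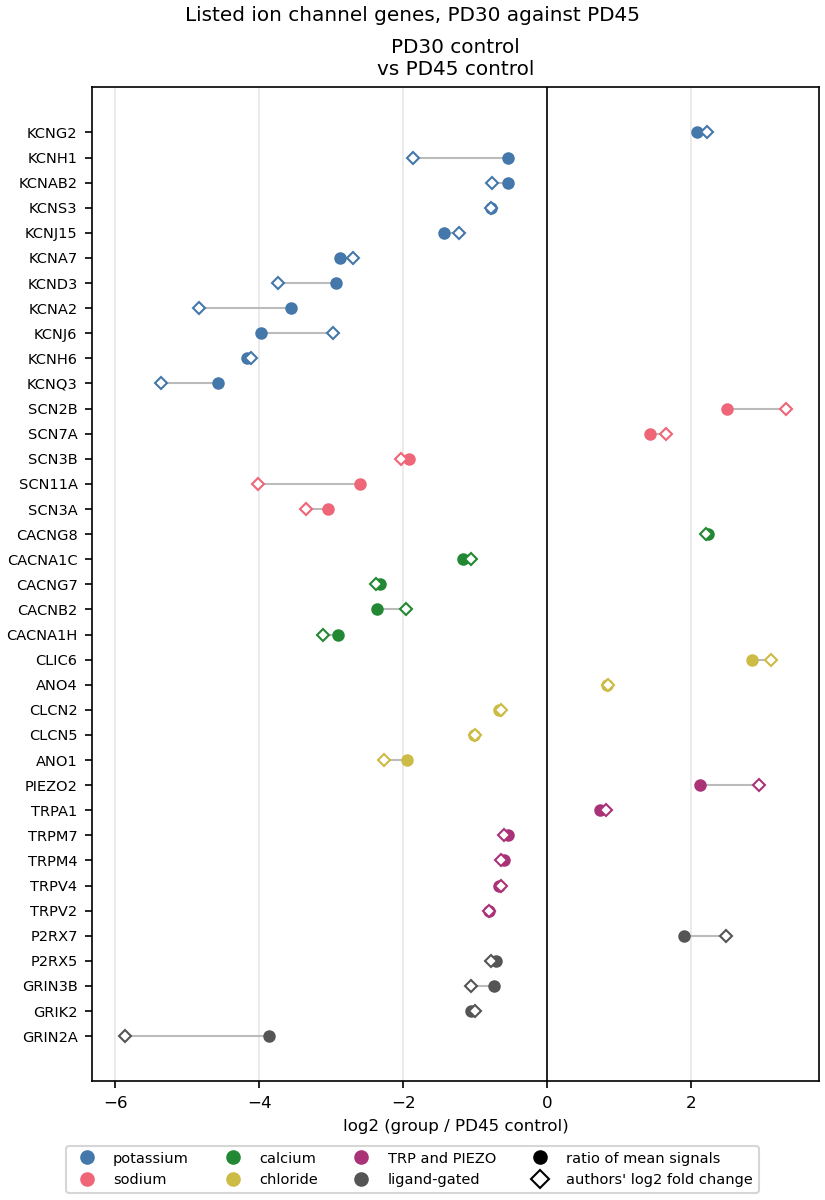
Log2 ratio of mean signals (filled circles) and the authors' deposited log2 fold change (open diamonds) for the reported ion channel genes listed for PD30 against the PD45 control, coloured by ion class. The measures lie close for genes such as TRPV2 and ANO4 and apart for GRIN2A and KCNH1.

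Of the voltage-gated sodium channel genes, the pore-forming SCN3A had signals of 0.21, 0.39 and 0.14 at PD30 and 1.52, 2.40 and 2.15 at PD45, an 8.20-fold lower mean (limma, adjusted p = 2.85e-05). SCN11A, a channel of sensory neurons, was also listed as lower, with means of 0.04 and 0.243. None of the 6 sodium channel genes had overlapping groups, and 93.6% of all genes listed for PD30 had none either. Of the auxiliary beta subunits, SCN3B was listed as lower (0.0867 ± 0.0379 against 0.327 ± 0.0493) and SCN2B as higher, with 0.53, 0.52 and 0.54 at PD30 against 0.16, 0.06 and 0.06. SCN7A, which encodes a sodium-sensing relative of these channels, was listed as higher, with 0.84, 0.80 and 0.66 against 0.23, 0.30 and 0.32.

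Pore and accessory genes of voltage-gated calcium channels were mostly listed as lower. CACNA1C, the pore of the L-type channel, had signals of 1.89, 1.43 and 1.45 at PD30 and 3.63, 3.75 and 3.32 at PD45, a 2.24-fold lower mean (limma, adjusted p = 0.000201). CACNA1H, a T-type pore that opens at low voltage, had 0.05, 0.13 and 0.15 against 1.03, 0.91 and 0.54. CACNB2, the beta subunit that carries high-voltage pores to the membrane, had 0.02, 0.26 and 0.08 against 0.81, 0.66 and 0.39. Each of these genes had all PD30 libraries below all PD45 libraries, where 93.6% of all listed genes had groups that did not overlap. CACNG7 and CACNG8 belong to the gamma family, whose members also act as partners of AMPA-type glutamate receptors, and they were listed in opposite directions. CACNG7 had 0.61, 0.57 and 0.74 at PD30 against 2.97, 3.88 and 2.77 (5.01-fold lower), and CACNG8 0.110 ± 0.0100 against 0.0233 ± 0.0115.

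Among chloride channel genes, ANO4 had signals of 23.64, 23.34 and 21.53 at PD30 against 13.82, 11.37 and 13.21 and was 1.78-fold higher (limma, adjusted p = 5.68e-05). It belongs to the anoctamin family of calcium-activated channels and lipid scramblases. ANO1, the calcium-activated chloride channel of that family, went the other way, with 1.04, 0.43 and 0.62 against 2.64, 3.42 and 2. CLCN2, a plasma membrane chloride channel, was 1.59-fold lower and CLCN5, an endosomal chloride-proton exchanger, 2.03-fold lower (0.620 ± 0.0656 against 1.26 ± 0.117). CLIC6 was listed as higher at a mean of 0.12, and 2 of its PD45 libraries are listed at 0.

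TRP and PIEZO genes were split at PD30. PIEZO2, a stretch-activated cation channel of touch and proprioception, had signals of 4.54, 4.96 and 4.10 at PD30 and 0.60, 0.82 and 1.70 at PD45, a 4.36-fold higher mean (limma, adjusted p = 6.54e-05). TRPA1, an irritant-sensing calcium-permeable channel, had 26.66, 30.26 and 31.69 against 17.23, 14.90 and 21.04 (1.67-fold higher). TRPV2, TRPV4, TRPM4 and TRPM7 were lower. TRPV2, a calcium-permeable channel of the heat-sensing TRP family, had 46.63, 36.25 and 39.64 against 75.89, 71.62 and 65.92 (1.74-fold lower), and TRPV4, a channel sensitive to osmotic and mechanical stimuli, was 1.59-fold lower. TRPM4, which passes sodium and potassium when calcium rises, was 1.51-fold lower, and TRPM7, a magnesium-permeable channel fused to a kinase, 1.46-fold lower. No TRP or PIEZO gene had overlapping groups in this comparison, where 93.6% of all listed genes had none.

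Of the receptor channels, the ATP-gated P2RX7 was listed as higher at PD30, with signals of 0.45, 0.57 and 0.47 against 0.16, 0.11 and 0.13. P2RX5, of the same family, had 8.17, 9.54 and 8.12 against 15.46, 14.93 and 12 and was 1.64-fold lower (limma, adjusted p = 0.000703). The kainate receptor gene GRIK2 was 2.08-fold lower, at 1.72 ± 0.166 against 3.58 ± 0.673. For the NMDA receptor genes GRIN2A and GRIN3B the groups overlapped. GRIN2A had 0.53, 0.72 and 0.06 at PD45, so PD45 control replicate 3 lay within the PD30 range of 0 to 0.08. GRIN3B passed (adjusted p = 0.0226) but no longer did so without any 1 of PD30 replicates 2 and 3 and PD45 control replicates 1 and 2 (limma, adjusted p from 0.055 to 0.097).

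The limma test took listed genes whose signal averaged 1 or more over the 6 libraries, which 20 of the 40 members did. It is a re-test of genes that the authors had already selected and is no independent evidence of a difference. In it 4 members were higher and 15 lower at an adjusted p under 0.05, with adjusted p-values from 1.36e-05 to 0.0347, where 97.3% of all genes fitted passed. With 3 against 3 libraries the smallest two-sided exact permutation p for a single gene is 0.1.

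SCN7A and PIEZO2 were both listed as higher at PD30 and with siSRC2 and as lower with GW8510. The sequence upstream of their start sites is shown for these genes because their values went the same way in 3 tables, which share the PD45 control. TRPA1 was listed in the same directions in those tables, and its sequence is not shown. The PIEZO2 libraries overlapped the control with siSRC2 (limma, adjusted p = 0.302) and with GW8510, so its pattern is weak outside PD30. From the RefSeq annotation of GRCh38.p14, 43 of the 62 genes had at least 1 annotated start window. The 250 bases before the start are printed 5′ to 3′ on the strand of the gene, and capitals mark matches on either strand to the GC box GGGCGG or to CCAAT. The TATA box (TATAAA), the AP-1 motif (TGANTCA), the cyclic AMP response element (TGACGTCA) and the E-box (CACGTG) were also searched on both strands and are not in these windows. The PIEZO2 window is chr18:11149570-11149819 on the minus strand, and the windows of SCN7A are chr2:166494250-166494499 and chr2:166486972-166487221 on the minus strand.
PIEZO2: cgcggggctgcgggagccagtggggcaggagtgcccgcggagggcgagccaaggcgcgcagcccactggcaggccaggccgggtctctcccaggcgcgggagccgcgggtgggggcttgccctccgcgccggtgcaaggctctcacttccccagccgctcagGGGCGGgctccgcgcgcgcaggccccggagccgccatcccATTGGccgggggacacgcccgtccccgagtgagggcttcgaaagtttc
SCN7A upstream start: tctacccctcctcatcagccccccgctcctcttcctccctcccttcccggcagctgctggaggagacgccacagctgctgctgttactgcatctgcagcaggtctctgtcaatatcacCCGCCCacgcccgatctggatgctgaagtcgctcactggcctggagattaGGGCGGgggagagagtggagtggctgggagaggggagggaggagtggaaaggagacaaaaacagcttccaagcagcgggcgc
SCN7A downstream start: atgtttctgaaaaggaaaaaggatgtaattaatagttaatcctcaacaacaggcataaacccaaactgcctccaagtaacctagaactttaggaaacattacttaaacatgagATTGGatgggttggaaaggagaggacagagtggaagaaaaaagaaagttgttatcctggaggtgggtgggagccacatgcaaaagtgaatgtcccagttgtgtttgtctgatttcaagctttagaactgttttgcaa
The PIEZO2 window was 76.8% G and C with 29 CpG dinucleotides and held 1 GC box and 1 CCAAT match. The upstream SCN7A window had 62.4% and 10 CpG with 2 GC boxes, and the downstream window 38.8% and no CpG with 1 CCAAT match. Over 34943 windows of this length the medians were 58.0% and 11 CpG, and 42.5% held the GC box, 32.0% the CCAAT motif, 10.8% the TATA box, 6.59% the AP-1 motif, 1.63% the cyclic AMP response element and 6.32% the E-box. The 3 windows thus differ widely in composition, and such matches are descriptions of letters only.

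With GW8510 most listed channel genes had less transcript than the PD45 control. Of 29 listed, 24 were lower and 5 higher, where 38.8% of all genes in this table were higher. Potassium channel genes were lower in 12 of 14 cases, and all listed sodium (3), calcium (2) and ligand-gated genes (3) were lower. The higher genes were KCNK6, KCNJ8, PIEZO1, TRPV2 and ANO8. The groups did not overlap for 25 of the 29, against 90.6% of all listed genes. The median log2 ratio was -1.03 over the members and -0.72 over all listed genes. Both group means were under 1 for 7 of the 29 members, against 8.08% of all listed genes.

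The potassium channel genes that were higher with GW8510 were KCNK6 and KCNJ8, while KCNK2, a tandem-pore gene like KCNK6, was lower. KCNK6, a tandem-pore background channel, had signals of 13.08, 12.77 and 13.49 with GW8510 and 6.29, 6.35 and 6.21 in the control, a 2.09-fold higher mean (limma, adjusted p = 7.84e-05). KCNJ8, the pore of a potassium channel closed by ATP, had 4.31, 4.34 and 4.13 against 2.02, 1.87 and 2.11, a 2.13-fold higher mean (adjusted p = 0.00029). For both, the libraries of each group lay close together and the groups were well apart. ABCC9, the sulphonylurea receptor that forms this channel with KCNJ8, was 2.04-fold higher at 2.58 ± 0.216 against 1.27 ± 0.226, and is named here after its values were seen.

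KCNMA1, the large-conductance calcium-activated potassium channel, had 20.40, 22.48 and 23.03 with GW8510 against 33.67, 32.85 and 30.54 (1.47-fold lower, limma adjusted p = 0.000712). Its beta subunit gene KCNMB4 was listed as lower, at 0.0467 ± 0.0321 against 0.330 ± 0.147. KCNN2, a small-conductance calcium-activated channel, had 3.72, 2.76 and 3.13 against 7.67, 6.19 and 5.90 (2.06-fold lower). ANO1, the calcium-activated chloride channel, was 2.27-fold lower at 1.18 ± 0.327 against 2.69 ± 0.711. All 4 genes had every GW8510 library below every control library, where 90.6% of all listed genes had groups that did not overlap.

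KCNF1, a modulatory subunit, had 9.38, 10.33 and 12.18 with GW8510 and 25, 20.74 and 20.39 in the control, a 2.07-fold lower mean (limma, adjusted p = 0.000142). KCNG1 and KCNS3, of the same kind, were 1.63-fold and 2.34-fold lower, and the auxiliary KCNAB2 was 1.79-fold lower (4.24, 4.83 and 4.56 against 6.55, 9.81 and 8.05). KCNK2, a tandem-pore channel opened by stretch and lipids, had 2.70, 2.65 and 2.11 against 4.62, 3.46 and 5.14 (1.77-fold lower). KCND3 (0.613 ± 0.0874 against 1.12 ± 0.337), its relative KCND2 (0.0433 ± 0.0115 against 0.377 ± 0.275) and KCNA2 (0.0233 ± 0.00577 against 0.197 ± 0.0404) were listed as lower by the authors, at signals too low to enter the limma fit. KCNJ15 ranged from 0.20 to 0.72 with GW8510, overlapped the control and did not pass (adjusted p = 0.0674 in limma, and 0.0115 without PD45 control replicate 3).

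**Figure D3:**
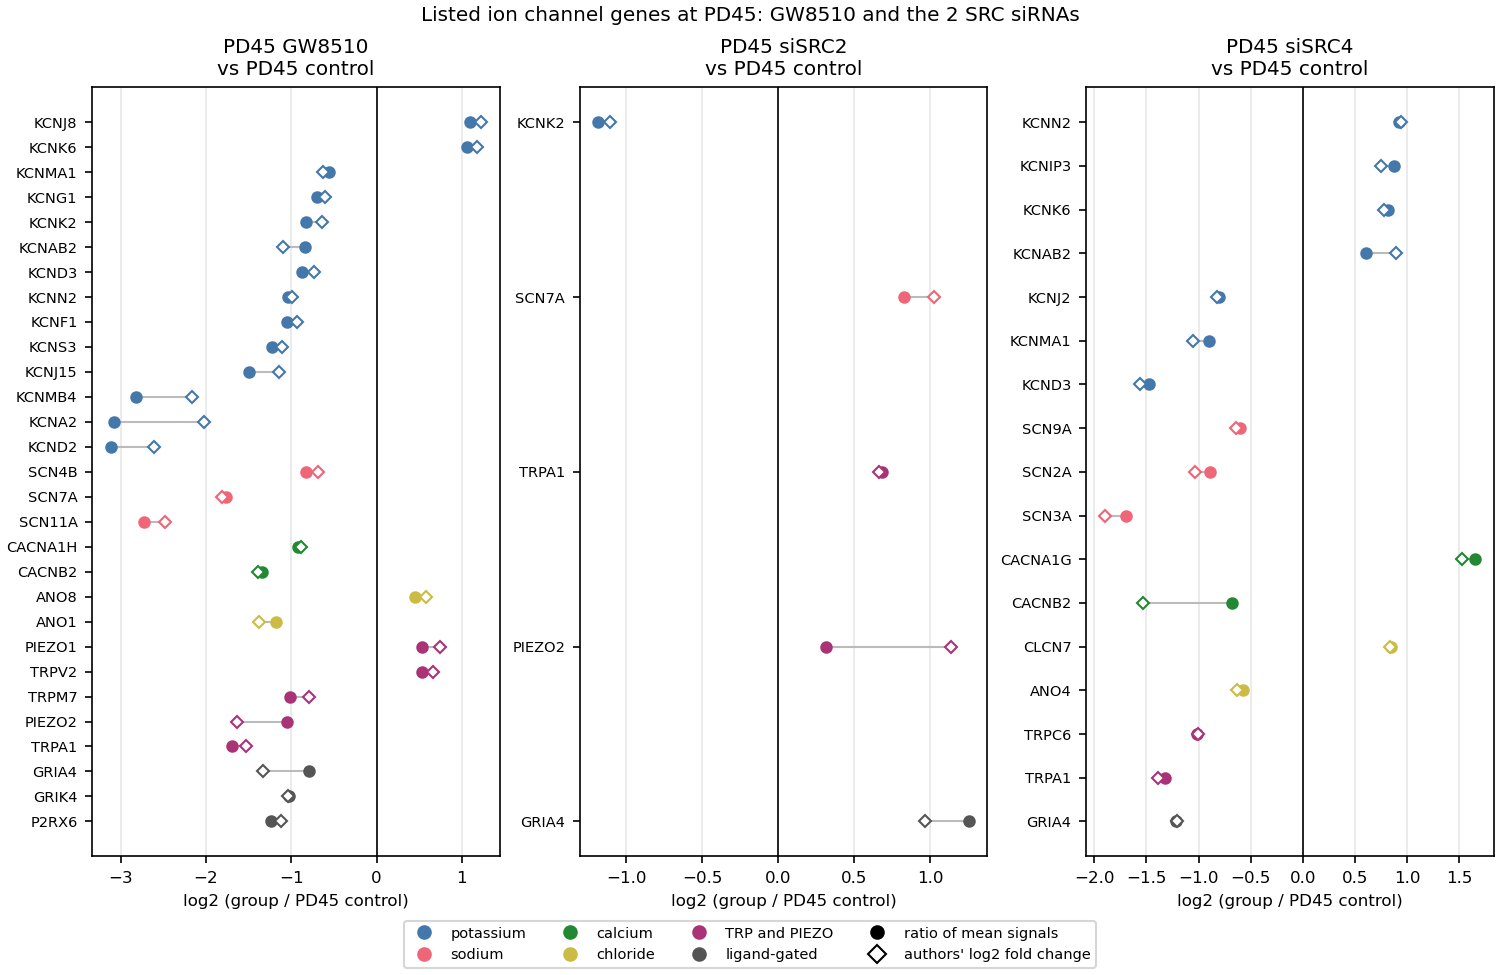
Log2 ratio of mean signals (filled circles) and the authors' deposited log2 fold change (open diamonds) for the reported ion channel genes listed with GW8510, siSRC2 and siSRC4, each against the PD45 control and coloured by ion class. The horizontal scales differ between panels, and PIEZO2 with siSRC2 and CACNB2 with siSRC4 show the widest gaps between the measures in their panels.

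Among TRP and PIEZO genes, TRPA1 was 3.23-fold lower with GW8510, at 4.36, 4.15 and 7.94 (limma, adjusted p = 0.00015). TRPM7 had 5.24, 4.41 and 5.26 against 9.59, 10.77 and 9.77, a 2.02-fold lower mean. PIEZO1, the stretch-activated channel of vessels and many other tissues, had 242.98, 211.02 and 255.45 against 177.36, 173.85 and 137.26, a 1.45-fold higher mean (adjusted p = 0.00172). TRPV2 had 107.93, 102.96 and 97.59 with GW8510 and was 1.45-fold higher. The groups of these 4 genes did not overlap, as was so for 90.6% of all listed genes. PIEZO2 was listed as lower with 0.52, 0.32 and 0.67, but 1 control library (0.60) lay inside that range.

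Of the sodium channel genes, the auxiliary SCN4B had 6.70, 5.26 and 4.42 with GW8510 against 11.61, 9.31 and 8.18, a 1.78-fold lower mean (limma, adjusted p = 0.00224). SCN7A and SCN11A were listed as lower, at 0.0833 ± 0.0404 against 0.283 ± 0.0473 and at 0.0367 ± 0.00577 against 0.243 ± 0.0833. Of the calcium channel genes, CACNB2 had 0.16, 0.26 and 0.31 against 0.81, 0.66 and 0.39, and CACNA1H 0.38, 0.25 and 0.68 against 1.03, 0.91 and 0.54, with overlap. GRIK4, a kainate receptor subunit, had 0.73, 0.87 and 1.36 against 1.87, 2.08 and 2.10 (2.04-fold lower, adjusted p = 0.00274). GRIA4, an AMPA receptor subunit, was listed as lower with overlapping groups (0.580 ± 0.234 against 1.01 ± 0.451), and P2RX6, an ATP-gated subunit, was listed as lower at 0.460 ± 0.233 against 1.08 ± 0.250.

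In the limma re-test 18 of the 29 members had enough signal to be fitted. Of these 5 were higher and 12 lower at an adjusted p under 0.05, where 95.4% of all genes fitted passed. ANO8, an anoctamin that tethers the endoplasmic reticulum to the plasma membrane, was the weakest of the passing members (4.62, 5.25 and 4.95 against 3.92, 4.11 and 2.77, adjusted p = 0.0324). It did not pass without GW8510 replicate 2 or 3 or PD45 control replicate 3 (adjusted p from 0.0688 to 0.0949). The authors' log2 fold changes in this table lie a median of 0.12 above the log2 ratios of mean signals, and shifting to their scale changed no member's call.

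With siSRC2, 5 channel genes were listed, 4 higher and 1 lower, where 52.3% of all genes in the table were higher. KCNK2 was the lower gene, with signals of 2.24, 1.48 and 2.09 against 4.62, 3.46 and 5.14, a 2.28-fold lower mean (limma, adjusted p = 0.00066). TRPA1 was 1.61-fold higher at 25.67, 23.97 and 35.83 (adjusted p = 0.00411), and SCN7A was listed as higher at 0.50, 0.55 and 0.46 against 0.23, 0.30 and 0.32. These 3 genes had groups that did not overlap, where 90.6% of all listed genes did not. GRIA4 had 2.85, 1.48 and 2.88 against 1.51, 0.64 and 0.87, so 1 siSRC2 library lay just below the highest control library, and it passed (2.39-fold higher, adjusted p = 0.00563). PIEZO2 had 1.43, 1.04 and 1.41 against 0.60, 0.82 and 1.70 and overlapped. Its limma log2 difference was 0.20 (adjusted p = 0.302), and without PD45 control replicate 3 it was 0.42 (adjusted p = 0.0131), while the authors' deposited log2 fold change was 1.14. In all, 4 members were fitted and 3 passed, 2 higher and 1 lower, against 95.5% of all genes fitted.

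With siSRC4, 18 channel genes were listed, 6 higher and 12 lower, where 44.6% of all genes in this table were higher. Potassium channel genes were the class with more higher than lower members (4 and 3). All listed sodium channel genes (3) and TRP genes (3) were lower. The groups did not overlap for 17 of the 18, against 88.8% of all listed genes, and all 13 members that were fitted passed, 5 higher and 8 lower, against 93.7% of all genes fitted. The median log2 ratio was -0.74 over the members and -0.54 over all listed genes. Both group means were under 1 for 3 of the 18 members, against 5.47% of all listed genes.

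The potassium channel genes that were higher with siSRC4 were KCNN2, KCNK6, KCNAB2 and KCNIP3. KCNN2 had signals of 11.96, 12.24 and 13.15 against 7.67, 6.19 and 5.90, a 1.89-fold higher mean (limma, adjusted p = 0.000832). KCNK6 had 10.12, 11.54 and 11.41 against 6.29, 6.35 and 6.21 (1.75-fold higher), and KCNAB2 13.28, 13.32 and 10.40 against 6.55, 9.81 and 8.05 (1.52-fold higher). KCNIP3, a calcium-binding partner of A-type channels, was 1.84-fold higher at 2.64 ± 0.455 against 1.44 ± 0.171. KCNMA1 was lower, with 17.74, 17.25 and 17.12 against 33.67, 32.85 and 30.54, a 1.86-fold lower mean (adjusted p = 0.000335). KCNJ2, a strong inward rectifier that holds the resting potential, had 1.95, 1.97 and 2.03 against 3.44, 3.45 and 3.50 and was 1.75-fold lower. KCND3 was listed as lower, at 0.43, 0.45 and 0.33 against 1.49, 1.04 and 0.83. The libraries of the siSRC4 and control groups did not overlap for any of these 7 genes, as was so for 88.8% of all listed genes.

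CLCN7, the lysosomal chloride-proton exchanger, was higher with siSRC4, with 51.70, 55.06 and 48.29 against 30.08, 30.36 and 26.07 (1.79-fold, limma adjusted p = 0.000422). ANO4 was 1.49-fold lower at 9.33, 7.30 and 9.17. The 3 listed pore-forming sodium channel genes were lower. SCN9A, known for its part in pain sensing, had 11.36, 11.08 and 10.25 against 17.07, 16.82 and 15.71 (1.52-fold lower). SCN2A and SCN3A, channels of brain neurons, were 1.86-fold and 3.25-fold lower (0.853 ± 0.110 against 1.58 ± 0.191 and 0.623 ± 0.249 against 2.02 ± 0.453). TRPC6, a diacylglycerol-gated channel, had 1.18, 1.27 and 1.41 against 2.53, 3 and 2.26 (2.02-fold lower). TRPA1 was 2.51-fold lower at 7.59, 5.66 and 7.97 (adjusted p = 0.000496). CACNA1G, a T-type pore, was listed as higher at 0.597 ± 0.182 against 0.190 ± 0.10. CACNB2 was listed as lower with overlap (0.387 ± 0.145 against 0.620 ± 0.213), and GRIA4 as lower without it (0.433 ± 0.182 against 1.01 ± 0.451).

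TRPA1 was listed in all 4 tables, and 6 further genes (CACNB2, GRIA4, KCNAB2, KCND3, PIEZO2 and SCN7A) in 3. The tables share the PD45 control libraries, so the groups were also compared with each other without the control. Only genes present in both tables entered, and the authors had selected these against that same control. In these direct limma tests on all libraries, every member that passed had been listed in opposite directions. Every member that did not pass had been listed in the same direction. The calls therefore largely restate the selection and are no independent evidence. TRPA1 signals averaged 29.5 ± 2.59 at PD30, 28.5 ± 6.41 with siSRC2, 17.7 ± 3.10 in the PD45 control, 7.07 ± 1.24 with siSRC4 and 5.48 ± 2.13 with GW8510. Between the siRNAs, siSRC4 lay 1.86 below siSRC2 on the log2(signal + 1) scale (log2 difference -1.86, SE 0.18, limma adjusted p = 0.000119), and GRIA4 showed a log2 difference of -1.23 (SE 0.20, adjusted p = 0.00248). In that comparison 27.0% of the 100 genes fitted passed, and both channel genes fitted did. That share covers genes listed in the same direction as well as in opposite directions, while both channel genes were listed in opposite directions.

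GW8510 and PD30 cells differed for 3 of the 5 members that could be fitted, where 66.4% of the 512 genes fitted passed. TRPA1 (log2 difference -2.28, SE 0.20) and PIEZO2 (-1.88, SE 0.13) were lower with GW8510 than at PD30, and TRPV2 was higher (1.32, SE 0.11), with limma adjusted p-values from 5.84e-07 to 3.02e-06. KCNAB2 (log2 difference -0.22, 95% interval -0.60 to 0.16) and TRPM7 (-0.38, -0.75 to -0.01) did not pass after adjustment. For TRPM7 the adjusted p was 0.0698, and 0.00783 without PD30 replicate 3. Between siSRC4 and PD30 all 3 members fitted passed, where 60.4% of all genes fitted did. TRPA1 (-1.93, SE 0.14) and ANO4 (-1.32, SE 0.12) were lower and KCNAB2 (1.04, SE 0.18) was higher with siSRC4.

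Between GW8510 and siSRC4, 2 of 5 members passed, where 34.7% of all genes fitted did. KCNN2 (log2 difference -1.68, SE 0.16) and KCNAB2 (-1.26, SE 0.16) were lower with GW8510 than with siSRC4, at limma adjusted p-values of 1.41e-05 and 5.80e-05. No difference was called for KCNK6 (0.23, 95% interval -0.07 to 0.53) or KCNMA1 (0.32, 0.04 to 0.61, adjusted p = 0.0822). TRPA1 was not called either (-0.35, -0.87 to 0.16, adjusted p = 0.288), but passed without GW8510 replicate 3, which had the highest signal of its group (log2 difference -0.61, adjusted p = 0.043).

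**Figure D4:**
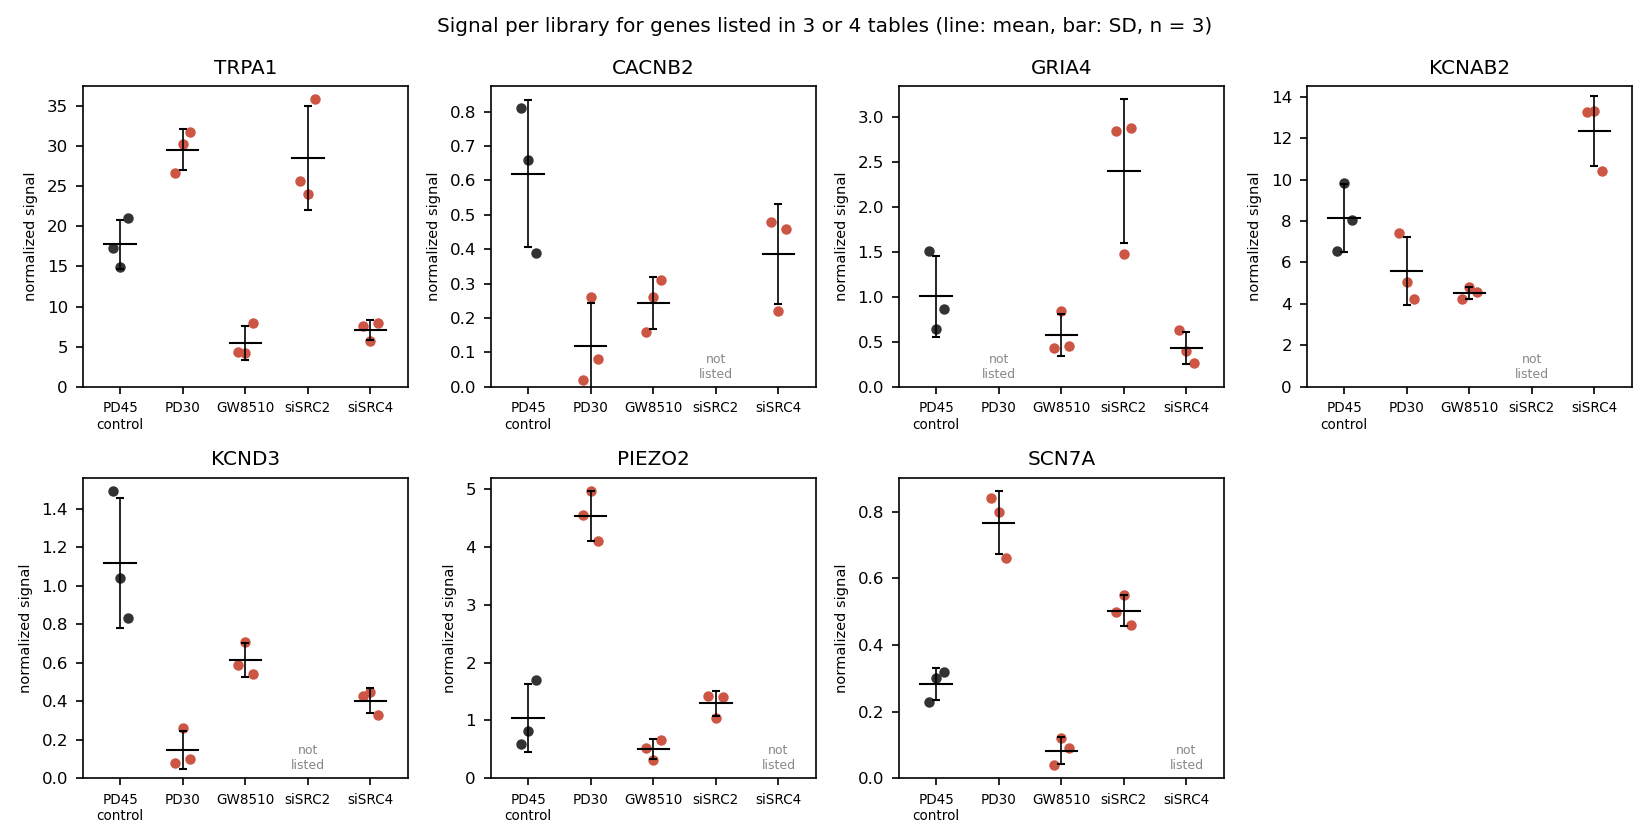
Normalized signal per library (points) with the group mean (line) and SD (bar, n = 3) for the 7 ion channel genes listed in 3 or 4 tables, with each vertical axis starting at 0 and groups whose table does not hold the gene marked as not listed. TRPA1 is above the PD45 control at PD30 and with siSRC2 and below it with GW8510 and siSRC4, and the control libraries of PIEZO2 spread from 0.60 to 1.70.

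Genes that work beside these channels were counted from 4 further lists. Of 104 other channel genes, 16 were listed for PD30 (7 higher, 9 lower), 7 for GW8510 (2 higher, 5 lower), none for siSRC2 and 12 for siSRC4 (6 higher, 6 lower). Over all genes the authors tested, the shares listed were 15.3%, 11.8%, 2.64% and 8.77%, and of the listed genes 53.8%, 38.8%, 52.3% and 44.6% were higher. The list counts are out of all genes of a list, whether or not the authors tested them, so the shares listed have a different base. In the limma re-test, 13 of these were fitted at PD30 (4 passed as higher, 8 as lower), 7 with GW8510 (2 higher, 5 lower) and 11 with siSRC4 (5 higher, 6 lower), where 97.3%, 95.4% and 93.7% of all genes fitted passed. Of 57 genes of calcium handling, 9 were listed for PD30 (2 higher, 7 lower), 6 for GW8510 (1 higher, 5 lower), 2 for siSRC2 (both lower) and 4 for siSRC4 (all lower). The re-test fitted 8 of them at PD30 (2 passed as higher, 6 as lower), 5 with GW8510 (1 higher, 3 lower), 2 with siSRC2 (both lower) and 4 with siSRC4 (3 lower). Of 19 sodium-potassium pump genes 1 was listed in each table but that of siSRC2, which had none. FXYD5, a pump regulator (298 ± 25.2 at PD30 against 192 ± 17.9), and ATP1B1, a pump beta subunit (16.9 ± 2.02 with GW8510 against 27.3 ± 2.19), passed and are named after their values were seen. The same holds for the calcium handling genes of siSRC2, the kinase gene CAMKK1 (1.46-fold lower) and MCUB, a subunit that dampens the mitochondrial calcium uniporter (3.24-fold lower). For MCUB the authors' deposited log2 fold change was -0.79, a smaller change than the limma log2 difference of -1.22. That difference is on the log2(signal + 1) scale and is itself a smaller change than the 3.24-fold ratio of mean signals. By that ratio the gap to the authors' value is wider. Of 54 channel-associated genes, 9 were listed for PD30 (3 higher, 6 lower), 10 for GW8510 (2 higher, 8 lower), none for siSRC2 and 3 for siSRC4 (2 higher, 1 lower). Of these 7, 9 and 2 were fitted, and 2 higher and 5 lower, 2 higher and 7 lower, and 1 higher and 1 lower passed.

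Among these partners at PD30, RRAD, a small GTPase that inhibits L-type calcium channels, was 5.04-fold lower (3.80 ± 0.744 against 19.2 ± 4.26). CNIH3, an auxiliary protein of AMPA receptors, was 3.34-fold lower at 3.42 ± 0.296 against 11.4 ± 1.17. AQP3, a channel for water and glycerol, was 4.45-fold higher, and the GABA receptor gene GABRB1 stood at 14.5 ± 5.34 against 4.59 ± 4.46 with overlapping libraries. With GW8510, CNIH3 was 3.30-fold, CNIH2 2.31-fold and RRAD 2.19-fold lower, as was LRRC8C, a subunit of volume-regulated anion channels, by 2.21-fold. CNIH3 went the other way with siSRC4, at 18.8 ± 5.87 against 11.4 ± 1.17 (1.65-fold higher, limma adjusted p = 0.0187), and is named there after its values were seen. With siSRC4, SGK3, a kinase that regulates ion transport, was 2.09-fold lower, LRRC8E 1.89-fold higher and TMEM38B, an intracellular cation channel, 1.87-fold lower. MICU3, a regulator of mitochondrial calcium uptake, was 1.76-fold lower with overlapping libraries (3.04 ± 1.20 against 5.34 ± 1.53).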

How the data were processed

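RNA was extracted with Trizol and libraries were made by Illumina protocols, per the labels' protocols. Tools named in the submitters' processing notes, with no versions or roles, are HISAT2 and StringTie, RSEM, CASAVA, edgeR and DESeq2. The same notes give the mouse build GRCm38, although every gene identifier is a human Ensembl one, so no coordinates come from the files. Per the file headers, each row of the 4 tables holds a signal per library, which the authors normalized to an unstated unit, with group means. The rows also hold the authors' fold ratio, log2 fold change, p-value and adjusted p-value. Strand use in counting is not given in the sources used here, so overlapping genes cannot be told apart.

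Group means with SD (n = 3) and their ratios came from Python 3.11.15 with pandas 2.3.3. After adding 1, signals were put on the log2 scale and tested in limma 3.58.1 (R 4.3.3, trend on) for listed genes averaging 1 or more, with Benjamini-Hochberg adjustment over all such genes of a table. Only the 6 libraries compared entered a fit. The script was tested on simulated data. Differences on this scale understate changes at low signal. Values of the control libraries were identical in all tables that share a gene.

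Same-numbered libraries had every correlation over 0.1 for siSRC4 and the PD45 control (0.107 to 0.136) and for GW8510 and siSRC4 (0.144 to 0.309). Libraries with different numbers were not set beside them, so these correlations do not establish pairing. All limma values reported as main results come from fits without pairing, and the replicate block was an alternative. Named genes include those listed in 2 or more tables and those whose higher group mean is at least 1 (up to 30 per comparison by size of ratio). They also include up to 4 partner genes per comparison. Members listed in 1 table with both group means under 1 are named as well within their ion class, some with values. The members and lists were chosen with earlier results of these data known. Alternatives were another pseudocount, other signal minimums, no trend, the replicate block, a shifted scale and each library left out. Sequences are from RefSeq, GRCh38.p14. Some genes of the set count in the totals and are not reported here by name.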

Additional observations from a re-analysis of the deposited data

Results flagged for a closer look

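The siRNAs against SRC differed in their effect on TRPA1 and GRIA4 when compared with each other rather than with the PD45 control. Both genes had been listed as higher with siSRC2 and as lower with siSRC4 against that control. A direct difference thus follows from the authors' selection and is no independent evidence. TRPA1 had signals of 25.67, 23.97 and 35.83 with siSRC2 and 7.59, 5.66 and 7.97 with siSRC4, a log2 difference of -1.86 (limma on log2(signal + 1), adjusted p = 0.000119). GRIA4 had 2.85, 1.48 and 2.88 with siSRC2 and 0.63, 0.40 and 0.27 with siSRC4, a log2 difference of -1.23 (limma, adjusted p = 0.00248). In both genes all 3 siSRC4 libraries lay below all 3 siSRC2 libraries, while SRC itself stood at 57.0% of the control with siSRC2 and 54.6% with siSRC4. The cause was not tested.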

How the results depend on the processing

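Under the alternatives no log2 difference of a member fitted in the main test changed sign, and 769 of 788 values kept their side of the threshold. Members below the signal minimum of the main test are not among these values. Another signal minimum, no trend or the replicate block leaves a log2 difference as it was. In those settings its sign could not change and only the adjusted p could. The counts of passing members followed the signal minimum, since a higher minimum tests fewer genes. With no minimum, 9 members passed as higher and 27 as lower for PD30, 21 as lower for GW8510, 3 as higher between GW8510 and PD30, and 4 as higher between siSRC4 and PD30. With a minimum of 5 the counts were 2 and 6 for PD30, 3 and 7 for GW8510, 1 and 0 for siSRC2, 4 lower for siSRC4, 1 lower between GW8510 and PD30, and 1 lower between siSRC4 and siSRC2. The median log2 value over the members was -1.03 for PD30, 0.97 for siSRC2 and -0.92 for siSRC4 by the authors' deposited log2 fold changes. With single libraries left out, the median log2 ratio ran from -0.97 to -0.83 for PD30 and from 0.49 to 0.87 for siSRC2. The number of members with separate groups ran from 35 to 38 for PD30 and 25 to 27 for GW8510. Leaving a library out can only keep or raise this number, so it is no check of stability. The replicate block gave a call to KCNJ15 for PD30 (adjusted p = 0.0079) and for GW8510 (adjusted p = 0.0294), and changed no other member's call. Correlations of same-numbered libraries did not all exceed 0.1 for PD30 and the PD45 control (-0.112 to 0.0102) or GW8510 and the PD45 control (0.024 to 0.107). The cause of these changes was not tested. Unknown depth limits what can be said of genes at signals below 1, where 2 decimals leave few steps.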
